A study of Mus musculus with 85 samples.

Results

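Immediate early genes are the first genes that a neuron switches on after synaptic activity, and 39 of them, listed by gene symbol, were followed in the hippocampus of 85 mice aged 8 months. Each deposited row whose symbol names a member was taken, and rows of the same member were summed. All 39 were found among the 53895 features of the series, and 37 reached at least 1 FPKM in at least 10 libraries and entered the tests. Fosb and Atf3 stayed under that filter and are described by their values. The mice formed 8 groups: female AD mice on methionine-restricted feed (FADMR, n = 11), female control mice on restricted feed (FWTMR, n = 10), female AD mice on standard feed (FAD, n = 11), female controls on standard feed (FWT, n = 10), and the same combinations in males (MADMR, n = 11; MWTMR, n = 10; MAD, n = 11; MWT, n = 11). AD mice are of the strain labelled APPswePSEN1dE9 and controls are C57BL/6J. In this line the prion protein promoter, which is not restricted to neurons, drives mutant amyloid precursor protein and presenilin, and the mice deposit amyloid plaques. The labels do not say how mice were housed, handled or killed, or in what order.

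When synaptic input raises calcium in a neuron, kinases phosphorylate transcription factors that already sit on the DNA, such as CREB at cyclic AMP response elements (CRE) and SRF at CArG boxes, and early genes are transcribed within minutes without new protein synthesis. Many encode transcription factors, which act on a later wave of genes. Others encode proteins that act at the synapse, such as Arc and the neurotrophin Bdnf, or brakes on the same signalling, such as the Dusp phosphatases. Their transcripts are short-lived, and in the hippocampus they are used as a mark of recent neuronal activity.

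Expression was deposited as FPKM, which corrects fragment counts for how long the transcript is and how many fragments the library has, and was here divided by 1 factor per library (0.885 to 1.13). All levels below are such scaled FPKM. FPKM do not give the number of reads, but in rows near 0 the values are steps of single reads, and the most frequent ratio between libraries gives their relative depth. It ran from 0.816 to 1.19 of the median library, with group medians of 0.953 (MADMR) to 1.04 (MWT), so depth differed little between groups. The total number of reads is unknown, and the precision rests on the spread between mice. The transgene was visible at the Prnp locus, which was at 857 to 1488 FPKM in 44 AD mice and at 225 to 444 FPKM in 41 control mice, with no overlap. Xist, the RNA that silences an X chromosome, was at 22.6 to 194 FPKM in females and at 0.108 to 0.85 FPKM in males. Females had more rows at 1 FPKM or more (median 19476) than males (median 18780). All 8 pan-neuronal markers were measured, and none was called between AD and control mice in any of the genotype comparisons. Every difference is taken as AD less control, restricted less standard feed, or female less male, on the scale log2(scaled FPKM + 1), with their standard error (SE). This scale understates the change of genes near 1 FPKM, such as Ier2. Tests are limma's, two-sided, with p-values adjusted by Benjamini-Hochberg over the 21300 features tested, and a member is called at an adjusted p under 0.05. In bulk tissue, fewer cells that express a gene and less RNA per cell cannot be told apart.

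The members' promoters were searched for the elements known from such genes. RefSeq (GRCm38.p6) gave 41 promoter windows of 300 bases, 250 before and 50 after the start, for 30 of the 39 members. Arc, Egr1, Egr3, Ier2, Klf10, Nptx2, Sik1, Trib1 and Vgf had no window and were not searched. The full CRE, TGACGTCA, was in 9.76% of the members' windows and in 1.79% of all 32851 windows, on either strand. Its core, TGACG on either strand, which lies inside the full element, was in 58.5% of the members' windows and in 20.8% of all windows. CArG boxes were in 12.2% of the members' windows, against 1.63% of all. All but 1 of these windows belong to Egr2 and overlap in part, so by gene it was Dusp5 and Egr2, 6.67% of the members with a window, against 1.81% of all genes. The binding site of the Egr factors themselves, GCGNGGGCG, was in 22% against 5.55%. AP-1 sites, TGANTCA, were in 2.44% against 7.81%. TATAAA was in 14.6% against 13.6%, and the binding site AAAGGTCA of the Nr4a receptors in none of the members' windows, against 1.51% of all. Several windows belong to the same gene, base composition was not matched, and a match of letters is a description and no proof of binding. Shown here are the 200 bases before the start, 5′ to 3′ on the strand of the gene, of Fos and of those members whose RNA rose and fell with Fos from mouse to mouse (below) and that have a window, with the full CRE and its core in capitals.
Fos: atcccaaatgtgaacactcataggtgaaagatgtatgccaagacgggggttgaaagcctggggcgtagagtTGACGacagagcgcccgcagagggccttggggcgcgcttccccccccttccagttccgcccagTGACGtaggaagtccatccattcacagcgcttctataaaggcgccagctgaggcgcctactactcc
Fosl2: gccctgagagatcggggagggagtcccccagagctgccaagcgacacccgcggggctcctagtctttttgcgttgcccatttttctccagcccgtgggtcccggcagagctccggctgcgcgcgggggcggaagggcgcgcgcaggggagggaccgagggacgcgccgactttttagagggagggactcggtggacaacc
Egr4: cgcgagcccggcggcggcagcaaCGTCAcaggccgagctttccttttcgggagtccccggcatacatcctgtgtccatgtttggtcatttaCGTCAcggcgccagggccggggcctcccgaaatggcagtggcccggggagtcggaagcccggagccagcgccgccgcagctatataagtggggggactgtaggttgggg
Npas4: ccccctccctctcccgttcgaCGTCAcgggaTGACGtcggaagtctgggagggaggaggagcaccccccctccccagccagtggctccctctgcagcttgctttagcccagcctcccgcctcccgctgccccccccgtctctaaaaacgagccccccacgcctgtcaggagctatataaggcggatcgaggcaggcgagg
Nr4a1: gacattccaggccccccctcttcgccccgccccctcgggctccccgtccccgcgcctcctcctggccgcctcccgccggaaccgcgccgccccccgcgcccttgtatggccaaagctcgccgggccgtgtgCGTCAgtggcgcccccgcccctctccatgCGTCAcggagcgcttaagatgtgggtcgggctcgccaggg
Dusp1: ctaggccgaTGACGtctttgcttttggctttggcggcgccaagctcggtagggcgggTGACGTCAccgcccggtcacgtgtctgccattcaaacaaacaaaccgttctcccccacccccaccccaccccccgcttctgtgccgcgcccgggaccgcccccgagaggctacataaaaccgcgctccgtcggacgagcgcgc
Plk3: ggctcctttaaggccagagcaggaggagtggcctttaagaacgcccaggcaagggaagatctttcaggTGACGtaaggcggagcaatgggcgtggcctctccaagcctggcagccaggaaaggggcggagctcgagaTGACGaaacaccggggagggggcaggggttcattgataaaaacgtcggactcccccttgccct
Gadd45b: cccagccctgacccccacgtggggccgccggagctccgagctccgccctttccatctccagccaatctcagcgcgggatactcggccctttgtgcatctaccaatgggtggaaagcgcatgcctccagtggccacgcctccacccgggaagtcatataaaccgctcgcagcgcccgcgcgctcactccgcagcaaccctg
These stretches lie at chr12:85473690-85473889 (Fos, + strand), chr5:32136272-32136471 (Fosl2, +), chr6:85513590-85513789 (Egr4, -), chr19:4989972-4990171 (Npas4, -), chr15:101266646-101266845 (Nr4a1, +), chr17:26508473-26508672 (Dusp1, -), chr4:117133964-117134163 (Plk3, -) and chr10:80929891-80930090 (Gadd45b, +). Fos, Egr4, Npas4, Nr4a1, Dusp1 and Plk3 hold the core in the stretch shown, Dusp1 as the full palindrome. Fosl2 and Gadd45b hold neither there.

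Levels over all 85 mice differed widely between members. Bdnf, a neurotrophin, had the highest median (219 FPKM), followed by the nuclear receptor Nr4a3 (110), the polo-like kinase Plk2 (80.1), the neuropeptide precursor Vgf (72.7) and the zinc finger factor Egr1 (65.8). Fos, a subunit of the dimeric factor AP-1, was low in most mice, with a median of 2.31 FPKM. Its relatives Fosb (0.475) and Atf3 (0.161) and the early response gene Ier2 (0.964) lay under 1 FPKM. Arc, which binds the cytoskeleton and drives AMPA receptors off the synapse, had a median of 12.9 FPKM. Npas4, a neuronal factor that follows calcium entry, was at 13.9 FPKM, and Homer1, a postsynaptic scaffold, at 15.7 FPKM. Between mice of the same group, the 37 members tested spread by a median SD of 0.44 on the log2 scale, against 0.28 over all features tested. Homer1 was the least variable of them (SD 0.22). Bdnf (0.43), Arc (0.49), Egr1 (0.49), the receptor Nr4a1 (0.51), Npas4 (0.61) and Fos (0.68) lay higher.

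For a few members part of the spread was a gap between separate ranges of values. Junb, another AP-1 subunit, was at 0.218 to 0.743 FPKM in 15 mice and at 4.48 FPKM or more in the other 70. These 15 came from all 8 groups, 1 to 3 in each. Btg2, an antiproliferative gene, was at 0.129 to 5.56 FPKM in 20 mice of all 8 groups, 5 of them MWTMR, and at 14.7 FPKM or more in the rest. Nr4a3 was at 5.95 to 10.5 FPKM in 6 mice, of which 4 were MWTMR, 1 was FAD and 1 was MWT, and at 26.0 FPKM or more elsewhere. Vgf was at 14.6 to 26.6 FPKM in 3 MAD and 2 MWT mice, with no other mouse under 38.1 FPKM. Some mice were low for several members, and whether this exceeds the overlap expected by chance was not tested. Of the 15 low for Junb and the 20 low for Btg2, 3 were shared. Of the 6 low for Nr4a3, 3 were also low for Btg2 and 2 for Junb. Of the 5 low for Vgf, 2 were also low for Junb, 2 for Btg2 and 1 for Nr4a3. What sets these gaps was not tested, and group means of these 4 members also move with how many low mice fall in each group.

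**Figure D1:**
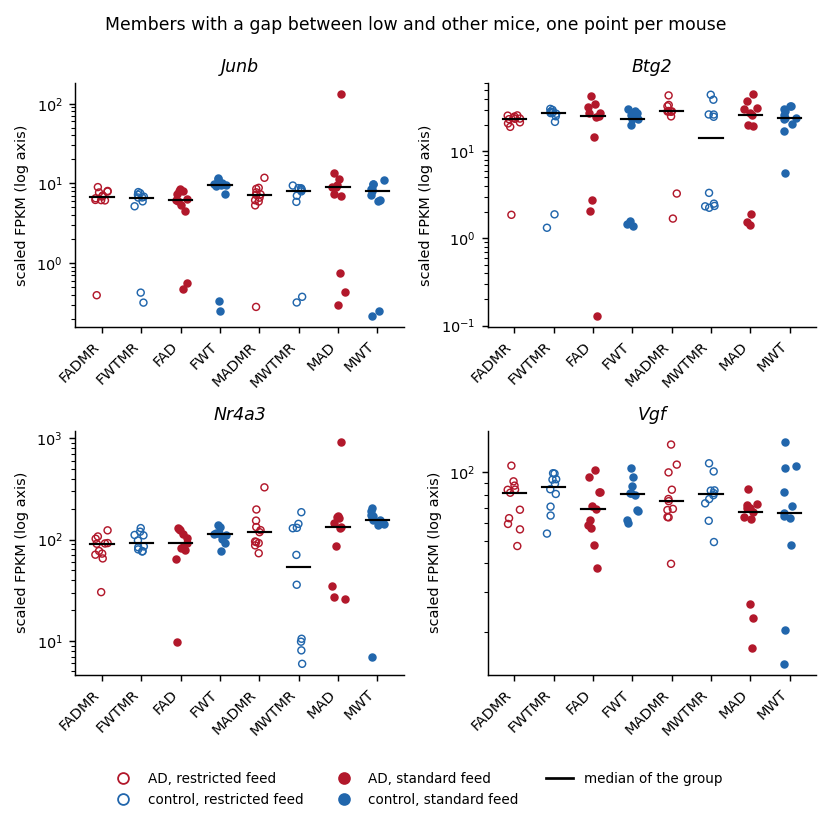
Scaled FPKM (vertical log axis) of Junb, Btg2, Nr4a3 and Vgf in the 8 groups, with a point per mouse (AD red, control blue; restricted feed open, standard feed filled) and a bar at the group median. The 15 low Junb mice, at 0.218 to 0.743 FPKM, are spread over all groups, while 4 of the 6 low Nr4a3 mice are MWTMR.

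A single male AD mouse on standard feed, MAD replicate 11, was far above all others. It was the highest of 85 mice for 31 of the 39 members. Among the 37 tested it was highest for 29, while it was highest for 2.99% of all features. Fos was at 166 FPKM in this mouse, against 2.20 to 4.53 FPKM in the other 10 MAD mice. Fosb was at 43.7 FPKM against 0.3 to 0.724, and Npas4 at 409 FPKM against 10.6 to 24.5. The largest ratios were those of transcription factors. Relative to the median of the other MAD mice, Fosb was 82.3-fold higher, Fos 55.8-fold, Atf3 31.3-fold, Egr2 30.8-fold, Npas4 26.5-fold, Egr4 18.4-fold and Junb 16.4-fold. The orphan receptors Nr4a2, Nr4a1 and Nr4a3 were 12.7-fold, 11.4-fold and 7.07-fold higher. Arc was at 170 FPKM, 8.52-fold higher, and Egr1 at 726 FPKM, 8.45-fold higher.

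Among effectors and kinases the largest ratios in this mouse were smaller. Ptgs2, the inducible cyclooxygenase, was 13.0-fold higher, Arl4d 9.54-fold, Bdnf 3.04-fold and Homer1 1.39-fold. Of the kinases and phosphatases, Sik1 was 7.18-fold higher, Trib1 4.77-fold, Dusp6 3.51-fold and Dusp1 2.18-fold. Vgf (0.336-fold), the activin subunit Inhba (0.598-fold) and Klf10 (0.637-fold) were lower than the median of the other MAD mice. For Vgf this mouse, at 23.0 FPKM, was in the low range described above, and the other MAD mice had 17.1 to 84.5 FPKM. Over all 39 members the median ratio was 5.58. Among 26 other activity-regulated genes, MAD replicate 11 was the highest of 85 mice for 13, including the feedback inhibitor Errfi1 (298 FPKM against 0 to 51.0), Cyr61 (447 against 25.2 to 62.1), the protocadherin Pcdh8 (578 against 42.9 to 100.4) and the clock gene locus Per1 (144 against 27.8 to 44.5). Its summed pan-neuronal markers were also the highest of 85, at 5115 FPKM, with 4789 FPKM as the highest other male. Its summed endothelial markers ranked 2 of 85, its dentate granule cell markers 3 and its CA1 markers 53. At the low end were its interneuron (rank 74), oligodendrocyte (76) and blood markers (83). Their part in the early gene values was not tested.

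In MADMR replicates 3 and 4, other subsets were high. MADMR replicate 3 was the highest of 85 for Bdnf (951 FPKM, against 164 to 440 in the other MADMR mice), the pentraxin Nptx2 (81.2 against 7.58 to 24.1), Inhba (16.2 against 0.999 to 2.65), Klf10 (14.0 against 0.668 to 10.1) and Ier5 (17.4 against 5.53 to 10.9). It was highest for 5 of 37 members tested and for 3.74% of all features. Its Fos was at 5.73 FPKM and its Fosb at 3.36 FPKM, while Nr4a1, at 23.6 FPKM, lay under the median of its group. The effectors Bdnf, Inhba and Vgf (132 FPKM) were all high in this mouse. In MAD replicate 11 Bdnf was high, while Inhba was low and Vgf was in its low range. Summed glucocorticoid response genes were the highest of 85 in MADMR replicate 3, at 898 FPKM. Its summed markers of microglia (62.3 FPKM), cortex (170) and thalamus (84.3) were the lowest of the MADMR mice. The other marker sums lay inside the range of its group. Their part in its early gene values was not tested. MADMR replicate 4 was second only to MAD replicate 11 for Fos (6.35 FPKM), Fosb (3.95), Egr1 (167), Egr3 (66.0), Egr4 (5.62) and Nr4a3 (329). Its Arc, at 12.6 FPKM, and Npas4, at 12.9 FPKM, were within the range of the other MADMR mice. No label sets these 3 mice apart, and their relative depths were 0.953 (MADMR replicate 3) and 0.97 (MADMR replicate 4) of the median library, which MAD replicate 11 equalled. The main results that include male AD mice are therefore given with and without them.

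**Figure D2:**
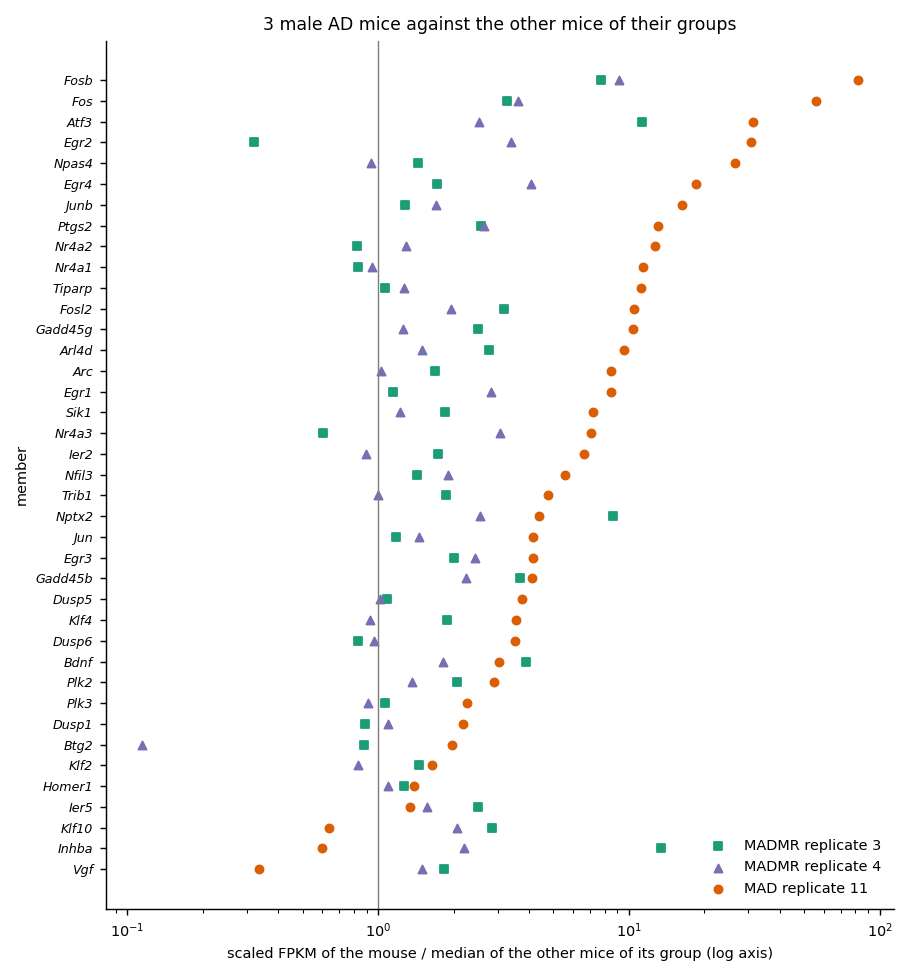
Ratio of the scaled FPKM of MADMR replicate 3, MADMR replicate 4 and MAD replicate 11 to the median of the other mice of the same group (horizontal log axis) for each of the 39 members, sorted by MAD replicate 11. In MAD replicate 11 the ratio runs from 0.336 for Vgf to 82.3 for Fosb. For Vgf, Inhba and Klf10 this mouse lies below 1 and MADMR replicate 3 above it. For Egr2, Nr4a1, Nr4a2, Nr4a3, Btg2, Dusp1 and Dusp6 it is the reverse.

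In females on standard feed, Arc fell in AD mice relative to control mice, and most other members had lower point estimates. Arc was at 6.50 to 13.5 FPKM (median 8.64) in FAD mice and at 14.0 to 26.0 FPKM (median 19.9) in FWT mice. Every FAD mouse lay below every FWT mouse. The difference was -1.06 ± 0.21 on the log2 scale (SE, adjusted p = 0.00273, limma), and Arc was the only member called. Of all features, 0.554% were called in this comparison, 0.235% as lower. Fos was at 0.926 to 2.11 FPKM (median 1.43) in FAD mice and at 2.36 to 4.74 FPKM (median 3.33) in FWT mice, again with no overlap, at -0.76 ± 0.29 (adjusted p = 0.267). Ier2, an early response gene, was at 0.661 to 1.03 FPKM in FAD mice and at 1.03 to 1.45 FPKM in FWT mice, the third member without overlap, at -0.28 ± 0.11 (adjusted p = 0.304). So 3 of the 37 members had groups that did not overlap, against 0.0939% of all features.

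Nr4a1, a nuclear receptor, had 15.1 to 31.6 FPKM (median 19.5) in FAD mice and 29.5 to 49.1 FPKM (median 37.2) in FWT mice. Its groups overlapped by few mice, and the difference was -0.79 ± 0.22 (adjusted p = 0.0771). Npas4 was at 7.62 to 14.8 FPKM in FAD mice and at 12.4 to 23.1 FPKM in FWT mice (-0.62 ± 0.26, adjusted p = 0.319). Plk3, a polo-like kinase, and Gadd45b, a stress-response gene, were at -0.35 ± 0.11 and -0.32 ± 0.14 (adjusted p = 0.147 and 0.346). Among the members with 11 of 11 FAD mice below the FWT median were Arc, Fos, Ier2, Nr4a1, Npas4, Plk3, Gadd45b, Egr4 and Junb. The share of all features with this pattern was not counted. Egr1, at 36.1 to 83.0 FPKM in FAD mice and 60.8 to 108 FPKM in FWT mice, overlapped more, and Junb had 2 mice of its low range in either group. Homer1 (12.1 to 17.6 in FAD mice against 11.6 to 21.4 in FWT mice) and Bdnf (147 to 302 against 166 to 262) lay over the same range. Over the 37 members the median difference was -0.21, with 30 below 0, against 0.011 and 47.2% below 0 over all features. Of the members 10 had an unadjusted p under 0.05, against 11.9% of features.

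The count of members called here depended in part on male mice, which enter the estimate of the spread shared by all 8 groups. Leaving out MAD replicate 11 made it 5 (Arc, Fos, Ier2, Npas4 and Nr4a1), where 0.629% of all features were called, and the Fos difference of -0.76 then had an adjusted p of 0.0024. Without MADMR replicates 3 and 4 as well it was 6, with Gadd45b added, and 0.709% of all features. With only the FAD and FWT mice in the fit, the same 6 were called, at 0.357% of all features. Glial markers were higher in the same mice: summed astrocyte markers were at 2388 to 5022 FPKM in FAD mice and at 1697 to 2932 FPKM in FWT mice, and summed microglia markers at 73.6 to 168 and at 54.2 to 84.5 FPKM. Of these lists, 1 of 8 astrocyte markers (Gfap) rose, and so did Trem2 among the microglia markers. Summed pan-neuronal markers were at 2957 to 4202 FPKM in FAD mice and at 2921 to 4212 FPKM in FWT mice, and summed dentate granule cell markers at 247 to 650 and at 284 to 424 FPKM. The part of glial markers in the early gene differences was not tested.

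**Figure D3:**
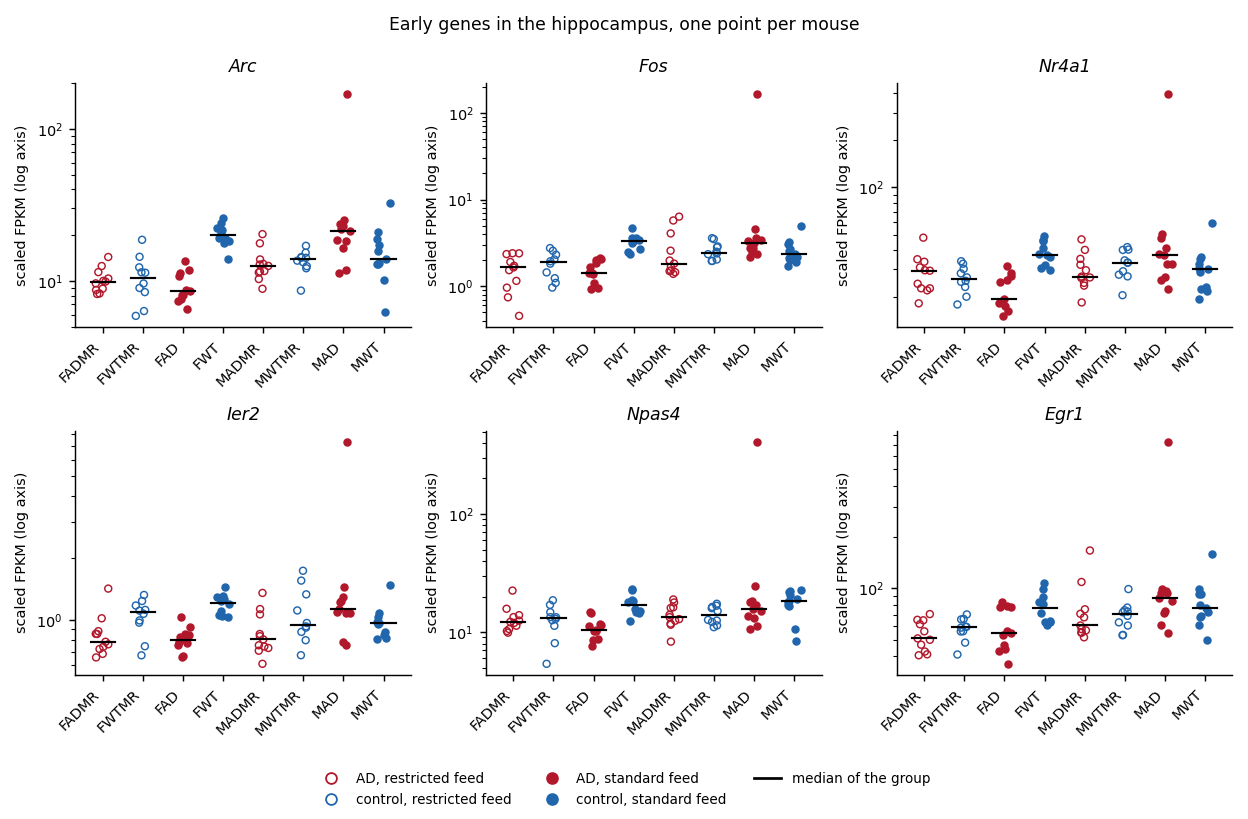
Scaled FPKM (vertical log axis) of Arc, Fos, Nr4a1, Ier2, Npas4 and Egr1 in the 8 groups, with a point per mouse (AD red, control blue; restricted feed open, standard feed filled) and a bar at the group median. For Arc and Fos every FAD mouse lies below every FWT mouse, and a single MAD mouse (Arc 170 FPKM, Fos 166 FPKM) lies far above the rest.

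FWT was the high group among females. It had the highest of the 4 female group medians for 27 of 37 members, against 26.8% of all features. The lowest median was spread over FADMR (13 members), FWTMR (10) and FAD (13). For Arc the medians were 9.90 FPKM in FADMR, 10.5 in FWTMR, 8.64 in FAD and 19.9 FPKM in FWT mice. For Fos they were 1.65, 1.88, 1.43 and 3.33 FPKM in the same order, and for Nr4a1 29.4, 26.0, 19.5 and 37.2 FPKM. Among males, MAD had the highest group median for 21 of 37 members, against 21.8% of all features, and MADMR the lowest for 24, against 31.5%. Arc medians in males were 12.6 FPKM in MADMR, 13.9 in MWTMR, 21.4 in MAD and 14.0 FPKM in MWT mice.

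In the other genotype comparisons no member was called. In females on restricted feed, Arc was at 8.21 to 14.4 FPKM in FADMR mice and at 5.89 to 18.6 FPKM in FWTMR mice, and the members' median difference was -0.014 (limma; 2 of 37 at an unadjusted p under 0.05, against 14.6% of all features, and 1.34% of features called). The smallest p-values were those of Klf4 (-0.33 ± 0.16, adjusted p = 0.332), Arl4d (0.49 ± 0.25, adjusted p = 0.341) and Egr2 (-0.77 ± 0.42, adjusted p = 0.399). In males on standard feed the values ran the other way: 34 of 37 members were above 0 (47.8% of features were below 0), with a median of 0.21 (9 at an unadjusted p under 0.05, against 7.12% of features; 0.0657% called). Arl4d, a small GTPase, was at 0.82 ± 0.24 (adjusted p = 0.286), Tiparp at 0.54 ± 0.19 (adjusted p = 0.43) and Arc at 0.60 ± 0.21 (adjusted p = 0.441). Without MAD replicate 11 the median was 0.017, with 22 members above 0, and Arc was at 0.31, Tiparp at 0.23 and Arl4d at 0.54. In males on restricted feed, 5 of 37 members had an unadjusted p under 0.05 (10.8% of features; 0.122% called), led by Nr4a3 at 1.66 ± 0.47 (adjusted p = 0.17), whose 4 low mice are in MWTMR, by Klf2 at -0.31 ± 0.11 (adjusted p = 0.362) and by Ier5 at 0.35 ± 0.13 (adjusted p = 0.377). There 21 of 37 members were below 0, with a median of -0.031. Without the 3 high mice 30 were below 0, with a median of -0.13, 9 had an unadjusted p under 0.05 (10.7% of features), and Ier5 was at 0.18 (adjusted p = 0.573).

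The genotype difference in females was set against that in males directly. On standard feed, Arc differed by -1.66 ± 0.30 between the sexes (adjusted p = 0.00229) and Nr4a1 by -1.32 ± 0.31 (adjusted p = 0.0432), the 2 members called, against 0.155% of all features. Arl4d (-1.41 ± 0.34, adjusted p = 0.0551) and Fos (-1.44 ± 0.41, adjusted p = 0.126) were next. The Nr4a1 call was lost when any of 27 single libraries was left out, with an adjusted p of up to 0.092, and with no filter or a filter at 5 FPKM. The Arc call was kept in each of these. Without MAD replicate 11, Arc was at -1.37 and Nr4a1 at -1.005 and both were called, and Fos was called as well (-0.95, adjusted p = 0.0307, 0.188% of features). Averaged over feeds, Arc was called at -0.81 ± 0.21 (adjusted p = 0.0452; 0.934% of features). That call was lost when any of 42 single libraries was left out, with the adjusted p then up to 0.0657, and with no filter, the replicate block or tissue covariates. On restricted feed no member was called (limma; 2 of 37 at an unadjusted p under 0.05, against 13.1% of features; 0% of features called). The smallest p-values there were those of Nr4a3 (-1.91 ± 0.66, adjusted p = 0.293), Klf2 (0.32 ± 0.16, adjusted p = 0.376) and Ier5 (-0.30 ± 0.18, adjusted p = 0.443). The members' median there was -0.045, with 20 below 0, and without the 3 mice it was 0.11, with 9 below 0 and none called. Averaged over both sexes and feeds, AD and control mice had no member called (3 of 37 at an unadjusted p under 0.05, against 13.2% of features; 1.7% of features called), with Klf4 at -0.24 ± 0.08 (adjusted p = 0.113), Klf2 at -0.13 ± 0.05 (adjusted p = 0.258) and Ier5 at 0.13 ± 0.06 (adjusted p = 0.372). Without MAD replicate 11, Klf4 (-0.28, adjusted p = 0.0131) and Ier2 (-0.12, adjusted p = 0.0344) were called, at 1.61% of features. Without all 3 mice 5 members were called, with Fos, Egr4 and Gadd45b added, all lower, at 1.91% of features.

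**Figure D4:**
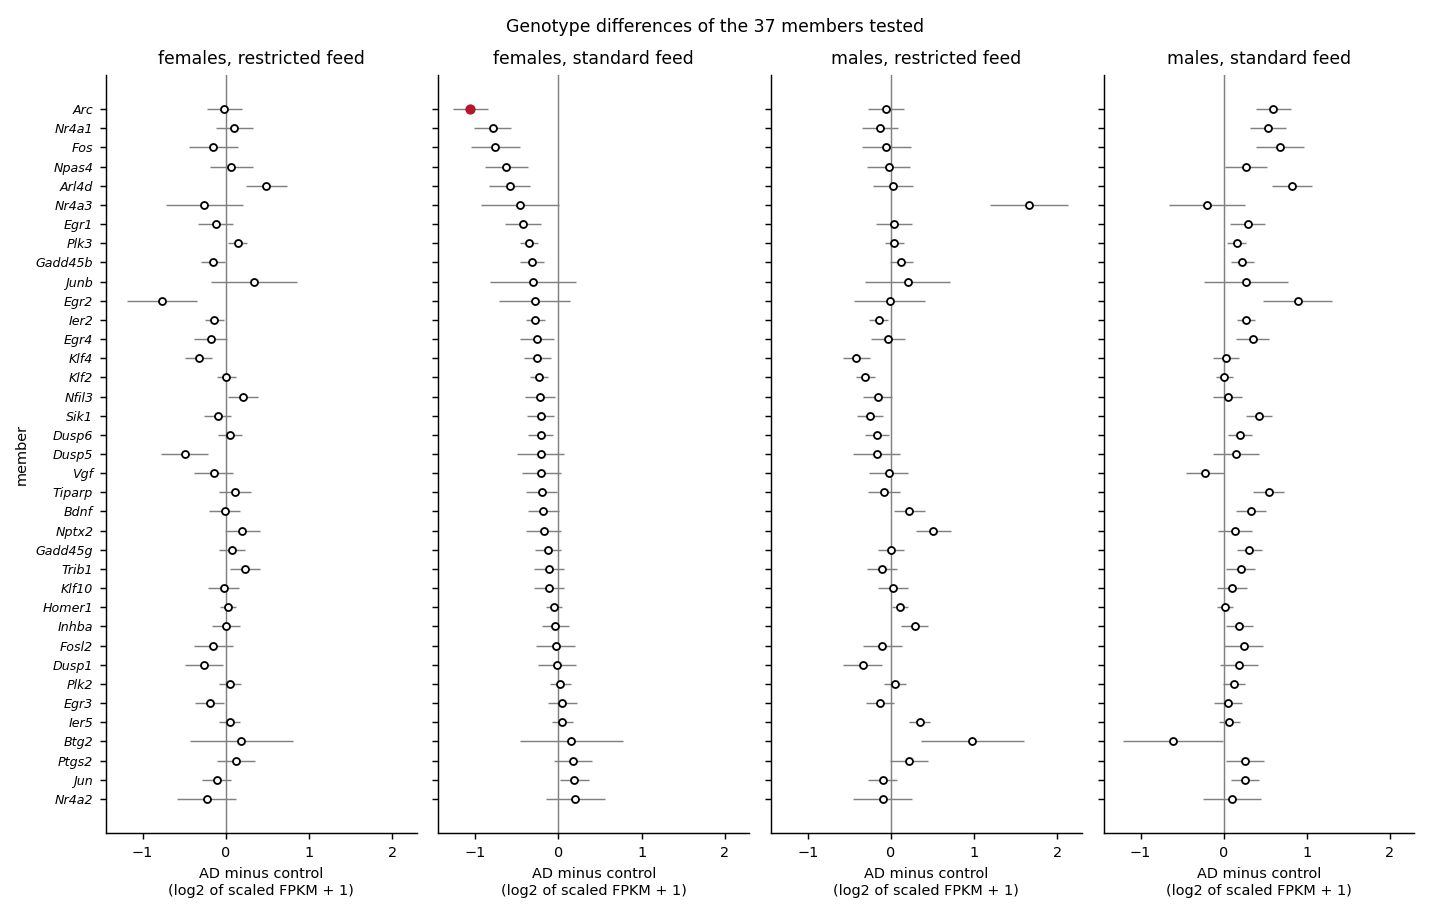
AD minus control difference (points, log2 of scaled FPKM + 1) with its SE (bars) for the 37 members tested, in females on restricted and on standard feed and in males on restricted and on standard feed. Filled red marks an adjusted p under 0.05, reached by Arc in females on standard feed (-1.06). There 30 of 37 members lie below 0, and in males on standard feed 34 lie above 0.

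Methionine restriction was compared within each sex and genotype. In female controls, Arc was at 5.89 to 18.6 FPKM (median 10.5) in FWTMR mice and at 14.0 to 26.0 FPKM (median 19.9) in FWT mice. The groups overlapped, and 10 of 10 FWTMR mice were below the FWT median. The difference was -0.91 ± 0.22 (adjusted p = 0.0722, limma). No member was called, 8 of 37 had an unadjusted p under 0.05 (6.99% of features; 0.0657% called), and 32 of 37 were below 0, as were 52.7% of features. Klf2, at -0.33 ± 0.11 (adjusted p = 0.347), and the repressor Nfil3, at -0.50 ± 0.18 (adjusted p = 0.413), followed. This comparison shares the FWT mice with the genotype comparison above. Without MAD replicate 11, Arc was called here (-0.91, adjusted p = 0.00151; 0.0704% of features), and without all 3 mice Fos was called too (-0.62, adjusted p = 0.0242; 0.117% of features). In AD females, Arc was at 8.21 to 14.4 FPKM in FADMR mice and at 6.50 to 13.5 FPKM in FAD mice. Of the members there, 0 were called and 1 of 37 had an unadjusted p under 0.05 (6.08% of features; 0.0141% called), led by Jun at -0.36 ± 0.17 (adjusted p = 0.792), Plk3 at 0.22 ± 0.11 (adjusted p = 0.817) and Nr4a1 at 0.36 ± 0.22 (adjusted p = 0.884). The feed difference of Arc was 0.13 in AD females and -0.91 in control females, a signed difference of 1.04 ± 0.30 (adjusted p = 0.323; 0.0329% of features called). It was called without MAD replicate 11 (adjusted p = 0.0457; 0.0423% of features). Arl4d (1.08 ± 0.35) and Plk3 (0.49 ± 0.16) followed with an adjusted p of 0.528 each, and 4 of 37 members had an unadjusted p under 0.05 in this interaction, against 5.62% of features.

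In AD males, Arc was at 8.88 to 20.3 FPKM (median 12.6) in MADMR mice and at 11.3 to 170 FPKM (median 21.4) in MAD mice, at -0.79 ± 0.21 (adjusted p = 0.283). All 11 MADMR mice were below the MAD median, although the groups overlapped. The pluripotency factor Klf4 was at -0.60 ± 0.16 (adjusted p = 0.283) and Arl4d at -0.87 ± 0.24 (adjusted p = 0.342). No member was called, and 16 of 37 had an unadjusted p under 0.05 (limma; 5.85% of features; 0.0141% called), with a median of -0.30. Leaving out MAD replicate 11, 9 had one (5.92% of features), the median was -0.084 and Arc was at -0.51 (adjusted p = 0.466). With MADMR replicates 3 and 4 left out too, 12 had one (6.92% of features), the median was -0.18 and Arc was at -0.57 (adjusted p = 0.276). Of the 22 other activity-regulated genes tested, Sgk1, a kinase induced by glucocorticoids and activity, was at -0.88 ± 0.18 in AD males on restricted feed (adjusted p = 0.0292). That call was lost without MAD replicate 11 (-0.83, adjusted p = 0.0672) and without all 3 mice (-0.85, adjusted p = 0.103). In control males 2 of 37 members had an unadjusted p under 0.05 (6.61% of features; 0% called). These were Nr4a3 (-1.66 ± 0.47, adjusted p = 0.335), with 4 low mice in MWTMR and 1 in MWT, and Sik1 (0.36 ± 0.16, adjusted p = 0.686). Btg2 came next (-1.13 ± 0.62, adjusted p = 0.8). The part of the low mice in the Nr4a3 difference was not tested.

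Averaged over sexes and genotypes, 32 of 37 members were below 0 on restricted feed, against 54.1% of features, with a median of -0.13, and 15 had an unadjusted p under 0.05, against 7.26% of features. None was called (0.117% of features called). Arc was at -0.43 ± 0.11 (adjusted p = 0.082), Klf2 at -0.20 ± 0.05 (adjusted p = 0.136) and Klf4 at -0.28 ± 0.08 (adjusted p = 0.173). Without MAD replicate 11, 25 of 37 members were below 0 (53.9% of features), with a median of -0.062. Then 13 had an unadjusted p under 0.05 (limma; 7.74% of features), and Arc was called (-0.35, adjusted p = 0.0217; 0.15% of features). Without all 3 mice, 28 members were below 0 (54.1% of features), with a median of -0.096. Arc (-0.37), Gadd45b (-0.16) and Gadd45g (-0.16) were then called, all lower (0.221% of features). No interaction of feed with sex or, averaged or in males, with genotype was called. The smallest p-values were those of Vgf (-0.37 ± 0.23, adjusted p = 0.688), Bdnf (-0.30 ± 0.19, adjusted p = 0.692) and Nr4a3 (0.63 ± 0.46, adjusted p = 0.767) for feed by sex. For genotype by feed they were those of Nr4a3 (1.03 ± 0.46), Jun (-0.33 ± 0.17) and Sik1 (-0.28 ± 0.16), at an adjusted p of 0.936 each. In males alone they were those of Sik1 (-0.68 ± 0.22), Nr4a3 (1.86 ± 0.65) and Ier2 (-0.42 ± 0.16), at 0.996 each. The members' median in males was -0.30, without MAD replicate 11 it was -0.035, and without all 3 mice it was -0.19. At an unadjusted p under 0.05 there were 0 members (8.46% of features) for feed by sex, 1 (5.17%) for genotype by feed and 9 (3.63%) for genotype by feed in males. Of all features 0%, 0.00469% and 0% were called.

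Many early genes were lower in females than in males. Of 37 members 20 were lower in females and 0 higher, averaged over genotypes and feeds. Sex moved much of the transcriptome: 51% of all features were called, 26.5% as lower and 24.6% as higher. Dusp6, a phosphatase that switches off ERK, was at 3.86 to 11.7 FPKM (median 6.76) in 42 females and at 4.83 to 34.6 FPKM (median 8.83) in 43 males, at -0.45 ± 0.07 (adjusted p = 5.85e-07). Ptgs2 was at 2.94 to 7.65 FPKM (median 4.85) in females and at 2.80 to 87.2 FPKM (median 7.39) in males, at -0.60 ± 0.11 (adjusted p = 1.24e-05). The sexes overlapped for both. By role, 3 of 4 AP-1 members tested were lower (Fosl2 -0.46, Fos -0.44 and Jun -0.22), and 5 of 9 zinc finger and other factors (Nfil3 -0.41, Egr3 -0.39, Klf10 -0.38, Egr1 -0.37 and Npas4 -0.30). The Npas4 call (adjusted p = 0.0493) was lost when any of 53 single libraries was left out, and with no filter, FPKM as deposited, an equal total, array weights or tissue covariates. None of the 3 orphan receptors was called (Nr4a1 -0.24, adjusted p = 0.0565). Of 8 effectors, Ptgs2, Homer1 (-0.22), Bdnf (-0.35) and Arc (-0.37) were lower. Of 7 kinases and phosphatases, Dusp6, Plk2 (-0.29), Trib1 (-0.32), Dusp1 (-0.34) and Sik1 (-0.22) were lower. Tiparp (-0.34), Ier5 (-0.20) and Gadd45b (-0.21) were lower among 6 growth arrest and early response genes.

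Without the 3 high male mice the count was 20 too, with 49.8% of features, although Jun was then not called (adjusted p = 0.0651). It moved with the scaling: with FPKM as deposited 15 were lower and 1, Vgf (0.27, adjusted p = 0.0452), was higher, and with an equal total per library 15 were lower and 0 higher. Genes upstream of the early response moved alongside. Of 33 genes of signalling and transcription machinery 17 were lower and 1 higher in females, and of 22 other activity-regulated genes 9 were lower and 0 higher. Of 8 pan-neuronal markers 4 were lower and 1 higher, of 8 dentate granule cell markers 3 were lower, of 8 endothelial markers 6 were lower and 1 higher, and of 8 interneuron markers 4 were lower and 3 higher. Of 3 blood markers and 6 markers of meninges and fibroblasts tested, 3 each were higher and none lower. The part of these in the members' difference was not tested.

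Early genes varied together from mouse to mouse within groups. With a slope on Fos added to the group means, 25 of 36 other members followed Fos (adjusted p under 0.05), all upward, against 0.84% of all features. Much of this came from MAD replicate 11. Without the 2 mice farthest from the median of Fos, MAD replicate 11 and MADMR replicate 4, 13 of 36 followed it, against 2.08% of features. These were Trib1 (slope 0.70 ± 0.09), Fosl2 (0.61 ± 0.13), Dusp1 (0.60 ± 0.17), Arc (0.59 ± 0.11), Nr4a1 (0.54 ± 0.11), Egr1 (0.52 ± 0.10), Nptx2 (0.50 ± 0.14), Sik1 (0.46 ± 0.08), Plk3 (0.43 ± 0.07), Npas4 (0.42 ± 0.11), Gadd45b (0.30 ± 0.08), Egr4 (0.27 ± 0.06) and Ier2 (0.23 ± 0.05), in log2 units per log2 unit of Fos. Ptgs2, Plk2, Nfil3 and Bdnf followed Fos with all mice (slopes of 0.52, 0.22, 0.34 and 0.25), and had 0.033, -0.009, -0.081 and -0.011 without these mice. Jun (-0.31 ± 0.11), Nr4a3 (-0.36 ± 0.35) and Junb (-0.09 ± 0.39) were then negative too, and none of these was called. Without MADMR replicate 3 as well, 12 members followed Fos upward and 1 downward, Jun at -0.40 ± 0.12 (adjusted p = 0.036), against 5.82% of features. Nptx2 (0.12, adjusted p = 0.615) and Gadd45b (0.09, adjusted p = 0.419) were then not called, and Dusp6 (0.35, adjusted p = 0.0315) was.

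With Arc in the place of Fos, 24 of 36 members followed it (0.587% of features), and 8 did without the 2 mice farthest from the median of Arc, MAD replicate 11 and MWT replicate 10 (0.385% of features). These 8 were Npas4 (0.66 ± 0.09), Egr1 (0.61 ± 0.09), Nr4a1 (0.60 ± 0.09), Fos (0.45 ± 0.10), Dusp6 (0.44 ± 0.08), Trib1 (0.41 ± 0.10), Egr4 (0.33 ± 0.08) and Plk3 (0.32 ± 0.07). Of other genes of the pathway, 9 of 22 activity-regulated genes followed Fos with all mice, among them Coq10b (0.33 ± 0.02), Rgs2 (0.46 ± 0.04), Csrnp1 (0.24 ± 0.02) and Cyr61 (0.64 ± 0.06). With MAD replicate 11 and MADMR replicate 4 left out these 4 alone did, at 0.25, 0.31, 0.21 and 0.73. Of the 33 genes of signalling and transcription machinery 1 did, the locus of Srf (0.20 ± 0.04), the factor that binds CArG boxes, and it had -0.10 (adjusted p = 0.596) without these 2 mice. With Arc in place of Fos, 8 of the 22 other activity-regulated genes followed it with all mice. Without MAD replicate 11, 3 did (0.629% of features), and without MAD replicate 11 and MWT replicate 10, 0 did. Mice share the library from which all members are read, so such slopes also hold whatever moves a whole library.

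**Figure D5:**
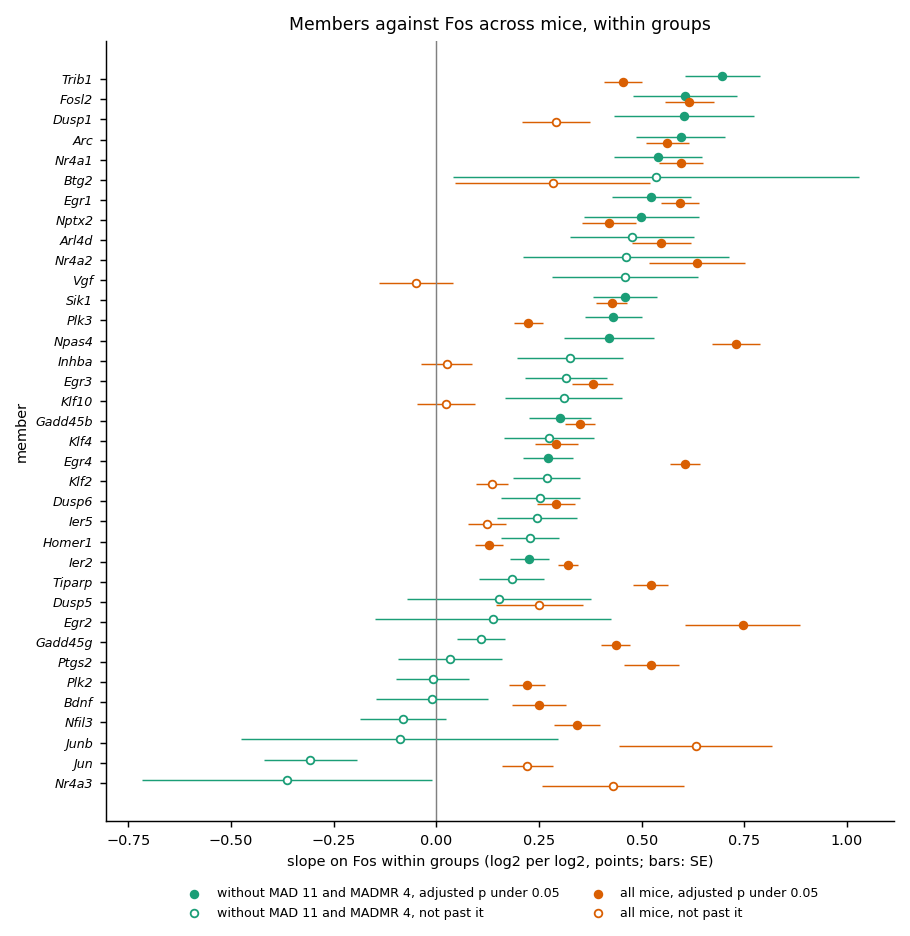
Slope of each of 36 members on Fos within groups (log2 per log2, points, with SE bars), from 83 mice (green, without MAD replicate 11 and MADMR replicate 4) and from all 85 mice (orange). Filled points have an adjusted p under 0.05, which 13 members reach in the 83 mice and 25 in all 85.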

How the data were processed

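Hippocampal RNA of 85 mice in 8 groups was extracted with phenol-chloroform and prepared as BGI-500 libraries, per the labels' protocols. The submitters' processing notes name Trimmomatic 0.38, HISAT2, StringTie 1.3.4d and the build GRCm38.p6, and the authors deposited a table of FPKM per gene. Of 56090 rows, 14100 without a symbol and 26 with a date as symbol were kept as separate features under their row identifiers. Rows with the same symbol were summed. There are 1713 rows that join several symbols: Egr3 shares its row with Bin3, and Nr4a2 with LOC105244150, so their values are uncertain.

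FPKM were scaled by median-of-ratios factors (0.885 to 1.13), filtered at 1 FPKM in 10 libraries, and taken to log2 with a pseudocount of 1. limma 3.58.1 (R 4.3.3, statmod 1.5.0), with trend and robust estimation, fitted 8 group means to all 85 libraries (77 residual degrees of freedom). The members named are those called, in a comparison with none the 3 with the smallest p-values, and always Arc, Fos, Junb, Egr1, Npas4, Nr4a1, Homer1 and Bdnf; of other lists, up to 4 called genes by p-value. Others were named after their values were seen. Relative depth came from the most frequent ratio between libraries in rows under 0.3 FPKM. It was the same against 2 anchor libraries for every library other than these anchors. That ratio held 48 of 4839 rows in FWT replicate 1, the fewest, and 99 of 4992 in MWT replicate 7, the most. No count test was run on FPKM. The labels tie each library to a mouse only by its number. The members and lists were chosen with earlier results of these data known. The method was tested on simulated data. Alternatives changed the scaling, pseudocount, filter, trend, joined rows, array weights, block, covariates or samples, and their effect is given at the end. The result of 1 microglia marker is not reported here.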

Additional observations from a re-analysis of the deposited data

Results flagged for a closer look

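Genotype differences that themselves differed between females and males were those of Arc on standard feed (-1.66 on the log2 scale), of Nr4a1 on standard feed (-1.32) and of Arc averaged over feeds (-0.81), by the interaction terms given above.

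In groups of 10 mice, 31 members were checked in 3 groups each, 93 checks in all, for a mouse whose gap to its nearest neighbour was large against the range of its group. There were 9 such values, in 8 mice. A rate of about 1 in 20 checks by chance holds only for independent, normally distributed values. These members varied together, so no excess over chance is read from the count. Among FWTMR mice these were the highest values of Egr2 (9.89 FPKM, replicate 3), Klf4 (19.5 FPKM, replicate 5) and Gadd45b (4.37 FPKM, replicate 1). Among FWT mice they were Fos (4.74 FPKM, replicate 3) and Sik1 (2.69 FPKM, replicate 5), both high, and Klf10 (0.38 FPKM, replicate 2), which was low. Among MWTMR mice they were Fosl2 (36.1 FPKM) and Homer1 (21.2 FPKM) in replicate 4 and Egr1 (99.2 FPKM) in replicate 6, all high. MAD replicate 11 is in a group of 11, which this check does not cover.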

How the results depend on the processing

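Counts of members called are given here with the count above first; with array weights the share of all features called is added. Female genotype on standard feed had 1, and 7 with array weights (6.44%), 3 with tissue covariates, 6 with only the 2 groups fitted and 6 without MAD replicate 11 and MADMR replicates 3 and 4 (chosen after seeing the data). Leaving out single mice gave 1 to 5, with 2 without FAD replicate 5 and 5 without MAD replicate 11. Genotype by sex on standard feed had 2, and 1 with no filter, 1 with a filter at 5 FPKM, 5 with array weights (2.05%), 4 with tissue covariates and 4 without the 3 mice (1 to 3 without single mice). Averaged over feeds it had 1, and 0 with no filter, 0 with tissue covariates and 0 to 1 without single mice. Male genotype on restricted feed had 0, and 1 with array weights (4.69%). Average genotype had 0, and 1 with array weights (5.15%), 5 without the 3 mice and 0 to 2 without single mice. Feed in female controls had 0, and 2 with array weights (0.653%), 1 with tissue covariates, 1 with only the 2 groups, 2 without the 3 mice and 0 to 1 without single mice, 1 without FWTMR replicate 1 or MAD replicate 11. Feed in AD males had 0, and 1 with array weights (0.16%). Average feed had 0, and 4 with array weights (0.977%), 3 without the 3 mice and 0 to 1 without single mice, 1 without MAD replicate 8, MAD replicate 11 or MWT replicate 1. Genotype by feed in females had 0, and 1 without the 3 mice and 0 to 1 without single mice. Sex had 20, and 19 to 22 without single mice. The slope on Fos had 25 (0.84% of features), and 16 with array weights (0.178%), 13 without the 2 mice farthest from the median (2.08%), 13 without the 3 mice (12 upward and Jun downward, 5.82%) and 12 to 26 without single mice. The slope on Arc had 24, and 8, 9 and 9 to 25 in the last 3 of these settings. Among single mice, the lowest count of either slope came without MAD replicate 11. The cause of the other changes was not tested. With a filter at 5 FPKM, Fos is not tested and its slope has no value.

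Of 115 named results 6 changed sign, all slopes, in 9 cases over the settings. Without the 3 mice, the slope on Fos was -0.033 for Gadd45g, -0.16 for Ptgs2, -0.18 for Nfil3, -0.17 for Plk2 and -0.34 for Bdnf, and that on Arc was -0.0074 for Fosl2. Without the 2 mice farthest from the median of Fos it was -0.081 for Nfil3, -0.009034 for Plk2 and -0.011 for Bdnf.

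Same-numbered mice did not deviate together (median correlation -0.0056 over 281 pairs, 34 of them over 0.1, against -0.00049 over other pairs), and 7 libraries matched their own number best. With a replicate block, Arc differed between FAD and FWT mice by -1.03 (adjusted p = 0.0053, limma), 22 members were called for sex, and the Arc call in genotype by sex averaged over feeds was lost (0 members called).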
